A study of Homo sapiens with 2 samples.

Results

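The sodium and calcium pump subunits followed here are 7 genes that encode P-type ATPases or their partner subunits. They are ATP1B1 and ATP1B3, for the beta subunit of the sodium pump, and the 5 calcium pumps ATP2A2, ATP2A3, ATP2B1, ATP2B4 and ATP2C1. They were chosen by name from 11963 genes with a probe set of their own, with earlier results of the same arrays known, and every probe set that carries 1 of these symbols alone was taken, 20 in all. Gene expression had been measured in L-428, a cell line established from Hodgkin's lymphoma (HL), on 2 Affymetrix HG_133A microarrays. The first array holds RNA from L-428 cells transfected with pcDNA6.2-GW/EmGFP-miR-DUSP5, a plasmid that expresses an artificial microRNA against the phosphatase DUSP5. The second holds RNA from L-428 cells transfected with pcDNA6.2-GW/EmGFP-miR-neg, a control plasmid of the same backbone that the study also calls empty. Both cell populations share the EmGFP reporter and the transfection. The share of transfected cells and the time after transfection are not given in the sources used here. With 1 array for each condition no difference has a replicate check, and p-values were not computed.

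The sodium pump moves sodium out of the cell and potassium into it at the cost of ATP. It joins a catalytic alpha subunit to a glycosylated beta subunit, which brings the pump to the plasma membrane, and ATP1B1 and ATP1B3 encode alternative beta subunits. Calcium pumps are single catalytic chains that differ in their place of work. SERCA pumps (ATP2A genes) fill the endoplasmic reticulum, PMCA pumps (ATP2B genes) expel calcium through the plasma membrane, and the SPCA pump encoded by ATP2C1 loads the Golgi apparatus with calcium and manganese. In lymphocytes calcium in the cytosol, which these pumps lower, is read by calmodulin and calcineurin, which switch on NFAT transcription factors.

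The values are MAS5 signal intensities, and a ratio is always the signal on the DUSP5 knock-down array over that on the vector control array, given as log2. The genes were picked for such ratios, so that all values of the 7 genes are a description. The error given with a ratio is the standard deviation (SD) with which the probe sets of any 1 gene scatter at that brightness. This SD shrank with brightness. It was 1.20 for the dimmest probe sets, with signals below 100 on average over both arrays, 0.74 for those up to 200, 0.42 up to 500, 0.36 up to 1000, 0.30 up to 3000 and 0.27 for all brighter ones. Probe error is covered by it, and the spread between cultures is not. A probe set counts as measured here if its signals averaged 200 or more over both arrays, and a gene was represented by its brightest probe set. DUSP5 itself had a signal of 368 on the knock-down array and 628 on the control array, a log2 ratio of -0.77 (SD 0.42). Of 10 listed marker genes of HL cells all 10 were measured, with signals of 317 to 9263 on the knock-down array and 756 to 7768 on the control array. Of 9 markers of other blood cells only the globin gene HBB was measured, at 239 on the knock-down array and 203 on the control array. The median log2 ratio was 0.12 over all probe sets and 0.01 over the 6301 measured genes.

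ATP1B1 had the lowest ratio among the 7 genes, and both of its probe sets were lower on the knock-down array. Probe set 201242_s_at gave a signal of 783 after knock-down and 4089 in control cells, or 19.2% of control (log2 ratio -2.38, SD 0.30). Probe set 201243_s_at gave 1372 after knock-down and 3456 in control cells, or 39.7% of control (log2 ratio -1.33, SD 0.30). Both differences were larger than 4 times the SD between probe sets. The ratios of the pair were 1.05 apart on the log2 scale, so that the direction was shared and the size was not. Of 393 genes with 2 probe sets at mean signals of at least 1000, 7 had probe sets at least this far apart, ATP1B1 included, and 6 had both ratios as low as -1.33. With the brighter probe set of ATP1B1, 20 of the 6301 measured genes had a lower ratio. In RNA of a whole culture, fewer cells that express a gene and less RNA per cell cannot be told apart.

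ATP1B3, the other beta subunit, went the opposite way. Its single probe set, 208836_at, gave a signal of 4977 after knock-down and 3231 in control cells, or 154% of control (log2 ratio 0.62, SD 0.27). This is larger than 2 SD between probe sets and just past the 1.5-fold line at 0.58. Ratios of this size were common at such high signals. Of 1068 probe sets with mean signals above 3000, 26.2% lay at least 1.5-fold higher and 7.40% that much lower on the knock-down array. With the trend of the ratio with signal subtracted by a lowess fit, ATP1B3 had a ratio of 0.49, after quantile normalization 0.52 and with all ratios centred on their median 0.50, all short of the 1.5-fold line. The ratio of ATP1B1 minus that of ATP1B3 was -3.01 on the log2 scale (SD 0.41). This difference takes 201242_s_at for ATP1B1, with a mean signal of 2436. Probe set 201243_s_at was almost as bright (2414) and had a ratio of only -1.33, so that the size of the difference depends on the probe set chosen. Its direction does not.

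The region around the transcription start is shown for these 2 genes because they are the pair of subunits with opposite ratios. RefSeq windows of assembly GRCh38.p14, each 300 bases long and spanning the start, were found for 6 of the 7 genes. ATP2A3 was not among them. The window of ATP1B1 is chr1:169106440-169106739 (plus strand) and that of ATP1B3 is chr3:141876393-141876692 (plus strand). Capitals mark the GC box GGGCGG and the CCAAT box CCAAT on either strand, none of which overlap.
ATP1B1: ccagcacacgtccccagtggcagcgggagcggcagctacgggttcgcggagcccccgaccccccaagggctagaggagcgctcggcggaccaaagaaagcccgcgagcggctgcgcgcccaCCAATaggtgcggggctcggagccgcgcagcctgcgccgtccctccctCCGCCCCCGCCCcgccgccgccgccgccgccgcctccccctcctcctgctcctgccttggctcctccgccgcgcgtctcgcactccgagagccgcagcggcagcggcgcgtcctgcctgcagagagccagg
ATP1B3: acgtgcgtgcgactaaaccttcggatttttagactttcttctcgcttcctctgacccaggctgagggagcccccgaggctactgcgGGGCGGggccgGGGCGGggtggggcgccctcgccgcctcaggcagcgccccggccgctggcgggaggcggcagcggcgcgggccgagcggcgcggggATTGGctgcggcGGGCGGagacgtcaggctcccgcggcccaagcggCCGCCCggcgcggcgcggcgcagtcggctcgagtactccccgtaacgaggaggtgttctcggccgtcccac
The window of ATP1B1 held 2 GC boxes and 1 CCAAT box, and that of ATP1B3 held 4 GC boxes and 1 CCAAT box. Neither held the TATA box TATAAA or the cyclic AMP response element TGACGTCA. Of 35116 windows of the same length in the table, 45.0% held a GC box, 34.6% a CCAAT box, 11.5% a TATA box and 1.85% a cyclic AMP response element. The share of G and C was 77.0% for ATP1B1 and 75.0% for ATP1B3, against a median of 58.7%. In letters, the beta subunit genes with opposite ratios thus have windows of a similar kind. A match is a description of the sequence and not a binding site.

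**Figure D1:**
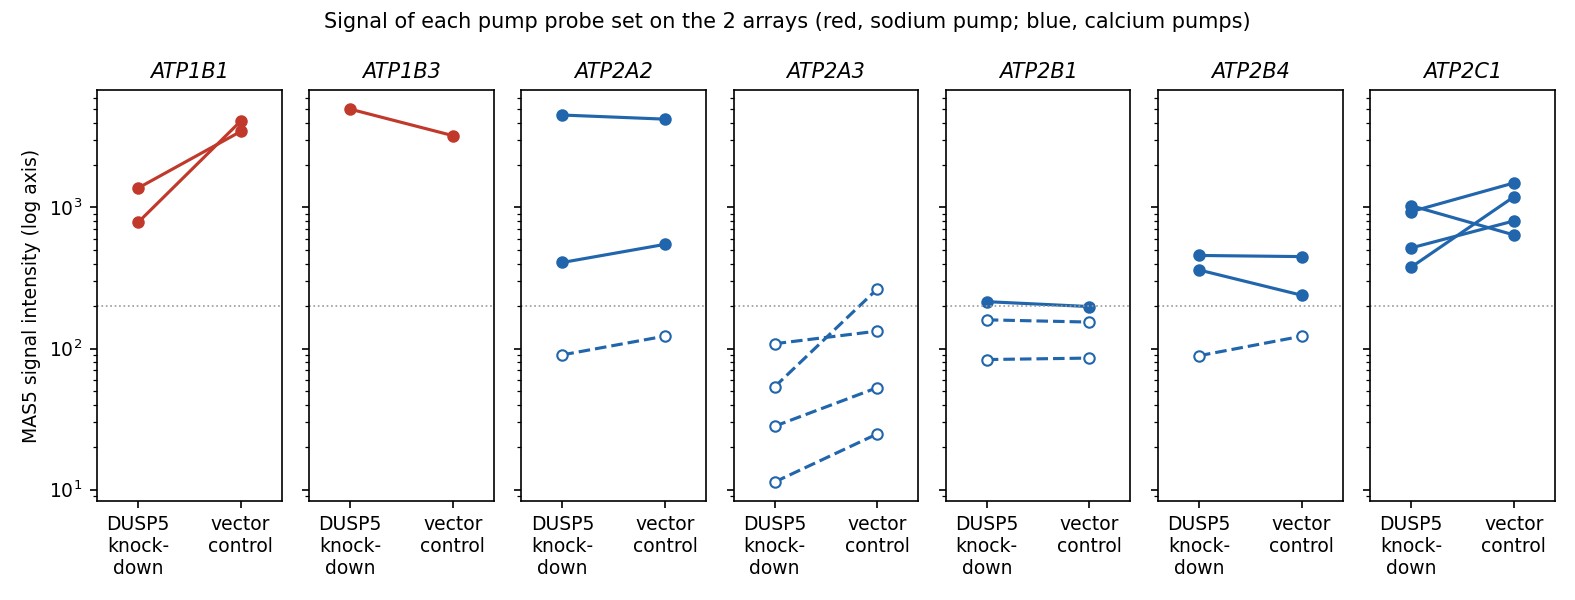
MAS5 signal intensity (log axis) of the 20 probe sets of 7 pump genes on the DUSP5 knock-down array (left point) and the vector control array (right point), 1 line per probe set. Red is the sodium pump and blue the calcium pumps, open points and dashed lines are probe sets with a mean signal under 200, and the dotted line marks 200. The lines of ATP1B1 run from 783 and 1372 after knock-down to 4089 and 3456 in control cells, whereas the lines of ATP2B1 are nearly level.

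Among the SERCA pumps, ATP2A2 and ATP2A3 differed. ATP2A2 encodes the SERCA pump of most cells and was bright. Its probe set 209186_at gave a signal of 4521 after knock-down and 4227 in control cells, a log2 ratio of 0.10 (SD 0.27). Probe set 212361_s_at gave 407 after knock-down and 548 in control cells, with a ratio of -0.43 (SD 0.42). The dim probe set 212362_at gave 90.2 after knock-down and 123 in control cells, with a ratio of -0.44 (SD 0.74). None of these ratios reached 1.5-fold, and the brightest probe set stood on the other side of 0 from the other two. The ratio of the brightest was itself -0.03 after quantile normalization and -0.06 with the lowess fit subtracted, so that ATP2A2 has no settled direction here.

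ATP2A3 encodes the SERCA pump that is typical of blood cells, and all 4 of its probe sets were lower on the knock-down array. All 4 also had mean signals under 200, so that the gene was not measured by the rule used here. Probe set 213036_x_at, of a type that can match several transcripts, gave a signal of 53.5 after knock-down and 264 in control cells, or 20.3% of control (log2 ratio -2.30, SD 0.74). Probe set 207522_s_at gave 108 after knock-down and 133 in control cells, with a ratio of -0.30 (SD 0.74), within the SD between probe sets. The dimmest sets were 213042_s_at, with 28.1 after knock-down and 52.8 in control cells, and 207521_s_at, with 11.3 after knock-down and 24.8 in control cells. Their ratios of -0.91 and -1.13 were smaller than the SD of 1.20 at such signals. Only 213036_x_at therefore differed by more than 1 SD, and 55 of 3253 probe sets with mean signals from 100 to 200 (1.69%), itself included, had a ratio as low. The ratio of ATP2A3 minus that of ATP2A2 was -2.40 (SD 0.79), and it rests on that probe set. With the mean of every probe set, ATP2A3 had a ratio of -1.16 and ATP2A2 one of -0.26.

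Of the PMCA pumps, ATP2B1 was close to level between the arrays, and the probe sets of ATP2B4 did not agree. ATP2B1, a calcium pump of the plasma membrane in most cells, gave ratios of 0.12, 0.05 and -0.03 over 3 probe sets. The brightest, 209281_s_at, gave a signal of 215 after knock-down and 198 in control cells (SD 0.42). The second, 215716_s_at, gave 160 after knock-down and 154 in control cells, and 212930_at gave 83.6 after knock-down and 85.6 in control cells. These sets agreed to within 0.15 on the log2 scale, far less than the SD at their signals. ATP2B4, which encodes another PMCA pump, had a signal of 457 after knock-down and 449 in control cells at 212135_s_at, a ratio of 0.03 (SD 0.42). Probe set 212136_at, designed on the same cDNA record, gave 361 after knock-down and 239 in control cells, a ratio of 0.59 (SD 0.42), which is just past 1.5-fold and was 0.47, short of it, with ratios centred. Probe set 205410_s_at gave 88.9 after knock-down and 122 in control cells, a ratio of -0.46 (SD 0.74). The 3 sets of ATP2B4 thus pointed in different directions, and the ratio of ATP2B4 minus that of ATP2B1 was -0.09 (SD 0.59).

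ATP2C1, the calcium and manganese pump of the Golgi apparatus, had 4 measured probe sets that did not agree. Probe set 209934_s_at, the brightest, gave a signal of 934 after knock-down and 1491 in control cells, a log2 ratio of -0.67 (SD 0.30). Probe set 209935_at, designed on the same cDNA record, gave 377 after knock-down and 1188 in control cells, which is 31.8% of control and a ratio of -1.65 (SD 0.36). Probe set 211137_s_at gave 517 after knock-down and 802 in control cells, a ratio of -0.63 (SD 0.36). Against these, 212255_s_at gave 1030 after knock-down and 639 in control cells, which is 161% of control and a ratio of 0.69 (SD 0.36). All 4 ratios were larger than 1 SD between probe sets and past 1.5-fold, 3 of them lower and 1 higher. With ratios centred 212255_s_at had 0.56, short of that line, and 211137_s_at fell short of it after quantile normalization (-0.54) and with the lowess fit subtracted (-0.57). The probe sets spanned 2.34 on the log2 scale. Of 177 genes with at least 4 measured probe sets, 2 spanned as much (1.13%), ATP2C1 included, against a median span of 0.68. Probe sets past 1.5-fold in both directions were found in 5 of these genes (2.82%). Whether the probe sets of ATP2C1 report different transcripts was not tested. The RefSeq table lists 3 start windows for this gene, all on the plus strand of chromosome 3, and which of these starts the L-428 cells use was not tested either.

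**Figure D2:**
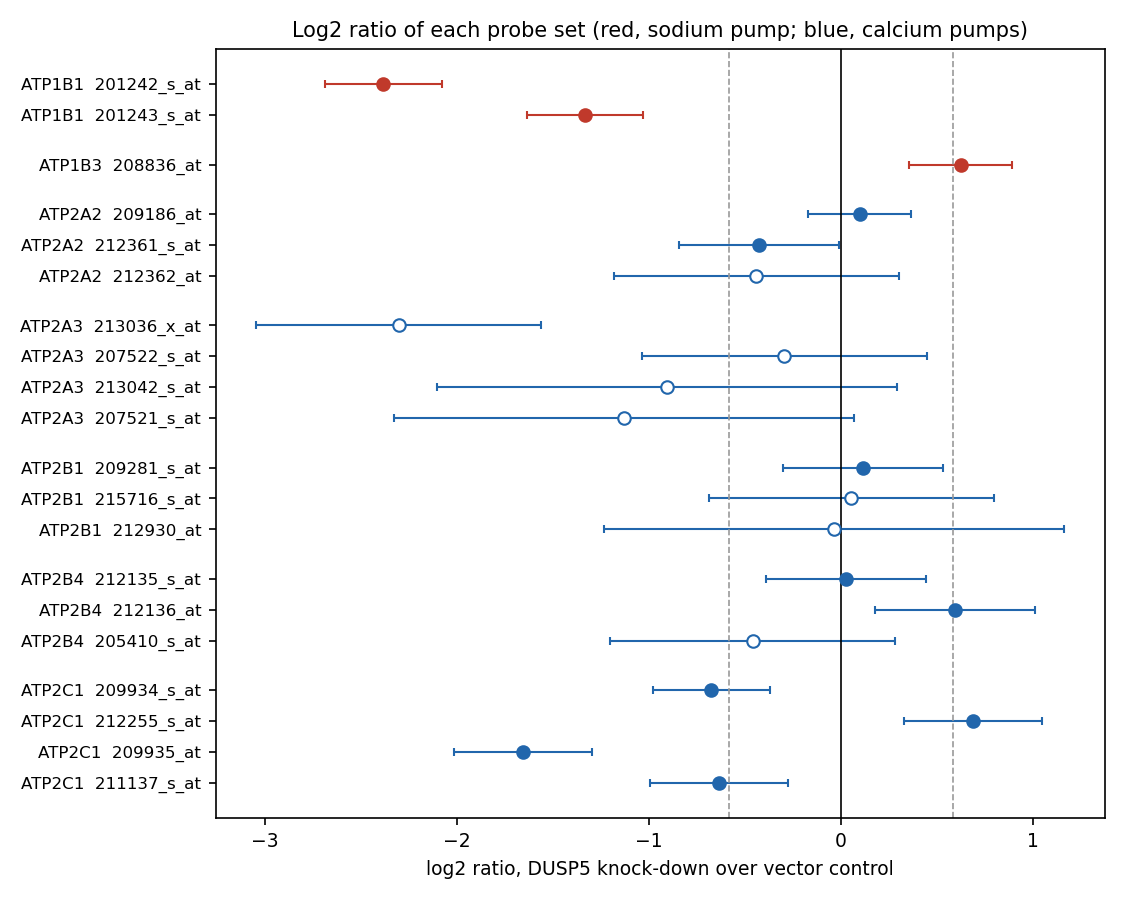
Log2 ratio of the signal intensity (DUSP5 knock-down over vector control, 1 array each) for the 20 probe sets of the 7 pump genes, each gene with its brightest probe set on top. Bars are 1 SD, as defined in the text, open points have a mean signal under 200, and the dashed lines mark 1.5-fold. Both ATP1B1 probe sets lie at or below -1.33, ATP1B3 lies at 0.62, and those of ATP2C1 lie from -1.65 to 0.69.

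Over the whole group, 6 of the 7 genes were measured, and ATP1B1 and ATP2C1 were at least 1.5-fold lower and ATP1B3 was at least that much higher on the knock-down array. For all 6301 measured genes these shares were 19.0% lower and 15.6% higher. The median log2 ratio of the 6 genes was 0.06, against 0.01 over all measured genes. Of the 20 probe sets, 13 were lower and 7 higher, with no limit on size. The median log2 ratio of all probe sets was 0.12, and their shares on each side of 0 were not counted. Of the 12 measured ones, 5 were at least 1.5-fold lower and 3 at least 1.5-fold higher, against 18.8% and 15.9% of all 10184 measured probe sets. With ratios centred 5 were lower and 0 higher, and after quantile normalization or with the lowess fit subtracted 4 were lower and 2 higher. The shares of all probe sets under these scalings were not counted. As these genes were picked for their ratios, nothing is read from these counts or shares.

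The sodium pump as a whole could not be set apart from the calcium pumps. The mean log2 ratio was -0.88 over ATP1B1 and ATP1B3 and -0.55 over the 5 calcium pumps, a difference of -0.33 (SD 0.29). Without ATP2A3, whose signals were under 200, the mean of the other 4 calcium pumps was -0.11 and the difference -0.77 (SD 0.27). Both differences take probe set 201242_s_at for ATP1B1, with a log2 ratio of -2.38. The almost equally bright 201243_s_at had only -1.33, so that the size of both differences depends on the probe set chosen. For the difference from all 5 calcium pumps the sign depends on it too. Once the types _s_at and _x_at were left out, the difference was 0.87, because ATP1B1 then has no probe set and ATP1B3 alone stands for the sodium pump. Within each kind of pump the spread was wider than this difference, from -2.38 to 0.62 for the sodium pump and from -2.30 to 0.12 for the calcium pumps.

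**Figure D3:**
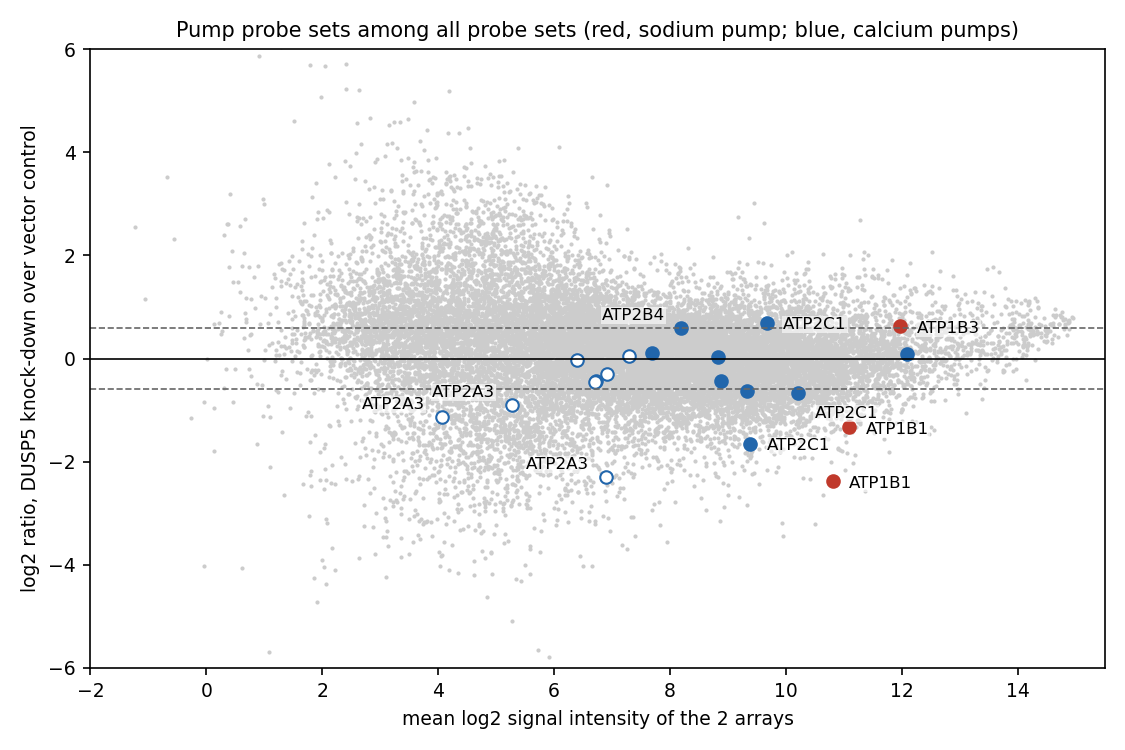
Log2 ratio of the signal intensities (DUSP5 knock-down over vector control) plotted over mean log2 signal intensity for 22215 probe sets (in grey), of which 4 lie outside the axes. Red points are the sodium pump and blue points the calcium pumps, open where the mean signal is under 200, the dashed lines mark 1.5-fold, and names are given for most points past these lines. ATP1B1 at -2.38 lies below nearly all probe sets of like signal, ATP1B3 at 0.62 lies where the grey points drift upwards, and most other pump points lie within the grey band.

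The partners of these pumps were looked up in lists that were written with earlier results known. Of 8 further genes of the sodium pump with a probe set, 2 were measured, and neither reached 1.5-fold. They were the FXYD proteins, small regulators of the pump, FXYD3 (signal 612 after knock-down and 480 in control cells, log2 ratio 0.35, SD 0.36) and FXYD5 (signal 509 after knock-down and 480 in control cells, log2 ratio 0.09, SD 0.42, or -0.04 with ratios centred). No gene of the catalytic alpha subunit was analysed here, so that the beta subunit ratios have no alpha subunit ratio beside them. None of the 6 other calcium pump isoforms and micropeptide regulators was measured, with signals of 16.3 to 174 on the knock-down array and 19.2 to 182 on the control array.

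Genes that release calcium from the stores filled by SERCA pumps, or refill them, went both ways. Of 8 measured genes, 3 were at least 1.5-fold lower and 1 was higher, with a median log2 ratio of -0.15 against 0.01 over all measured genes, of which 19.0% were lower and 15.6% higher by this rule. ITPR1, a calcium channel of the endoplasmic reticulum opened by inositol trisphosphate, was lower at all 3 probe sets, with a signal of 1434 after knock-down and 2611 in control cells at the brightest (log2 ratio -0.86, SD 0.30) and ratios of -1.06 and -1.28 at the others. SARAF, which restrains store-operated calcium entry, had a signal of 1076 after knock-down and 2218 in control cells at its single probe set (-1.04, SD 0.30). TRPC1, a cation channel, had a ratio of -0.83 (SD 0.42). At the upper end were ORAI3, a subunit of store-operated calcium channels (0.62, SD 0.42), ITPR3 (0.22, SD 0.36) and TMCO1 (0.14, SD 0.30). ORAI3 had 0.50, short of 1.5-fold, with all ratios centred on their median. ATP2A2, which fills the store that ITPR1 empties, had ratios on both sides of 0. Whether the ratios of ITPR1 and of the pump genes are linked was not tested.

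All 11 listed proteins that bind calcium or fold proteins in the secretory pathway were measured, and 8 of them had ratios above 0, or 7 after quantile normalization or with the lowess fit subtracted. The median was 0.28, against 0.01 over all measured genes, whose share above 0 was not counted. By the 1.5-fold rule 2 were higher and 1 lower, and 1 higher and 2 lower with ratios centred. Over all measured genes the shares were 15.6% higher and 19.0% lower, so that these counts lie near the background. The chaperone HSP90B1 stood at 0.89 with 1 probe set and at -0.10 with the other, and PDIA4, a disulfide isomerase, had 0.70 and 1.09. At the lower end SDF4, a calcium-binding protein of the Golgi apparatus, the compartment that ATP2C1 loads, had ratios of -1.15 (SD 0.30) and -0.55. RCN2 had -0.55 and -0.53, and RCN1 had -0.16. PDIA3 (0.47) completed the genes named for this list.

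Of 20 listed genes of the calmodulin, calcineurin and NFAT families and their regulators, 10 were measured. Among these 1 was at least 1.5-fold lower and none higher, with a median log2 ratio of -0.23. Not every listed gene need respond to calcium. With ratios centred 2 were lower. Of all measured genes 19.0% were lower and 15.6% higher. The lowest was CABIN1, an inhibitor of calcineurin, with a ratio of -0.98 (SD 0.42) at its brighter probe set and -0.30 at the other. RCAN1, a calcineurin regulator that is itself induced through NFAT, had -0.49 at its brightest probe set and 0.30 at the next, and NFAT5 had -0.44 (SD 0.42). NFATC3 (0.40, SD 0.42), the calmodulin-dependent kinase CAMKK2 (0.25, SD 0.42) and the calcineurin subunit PPP3CC (0.07, SD 0.30, or -0.05 with ratios centred) were highest. The other measured probe set of PPP3CC went the other way, with a ratio of -0.57. With the exception of CABIN1 these ratios were smaller than 1.5-fold.

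**Figure D4:**
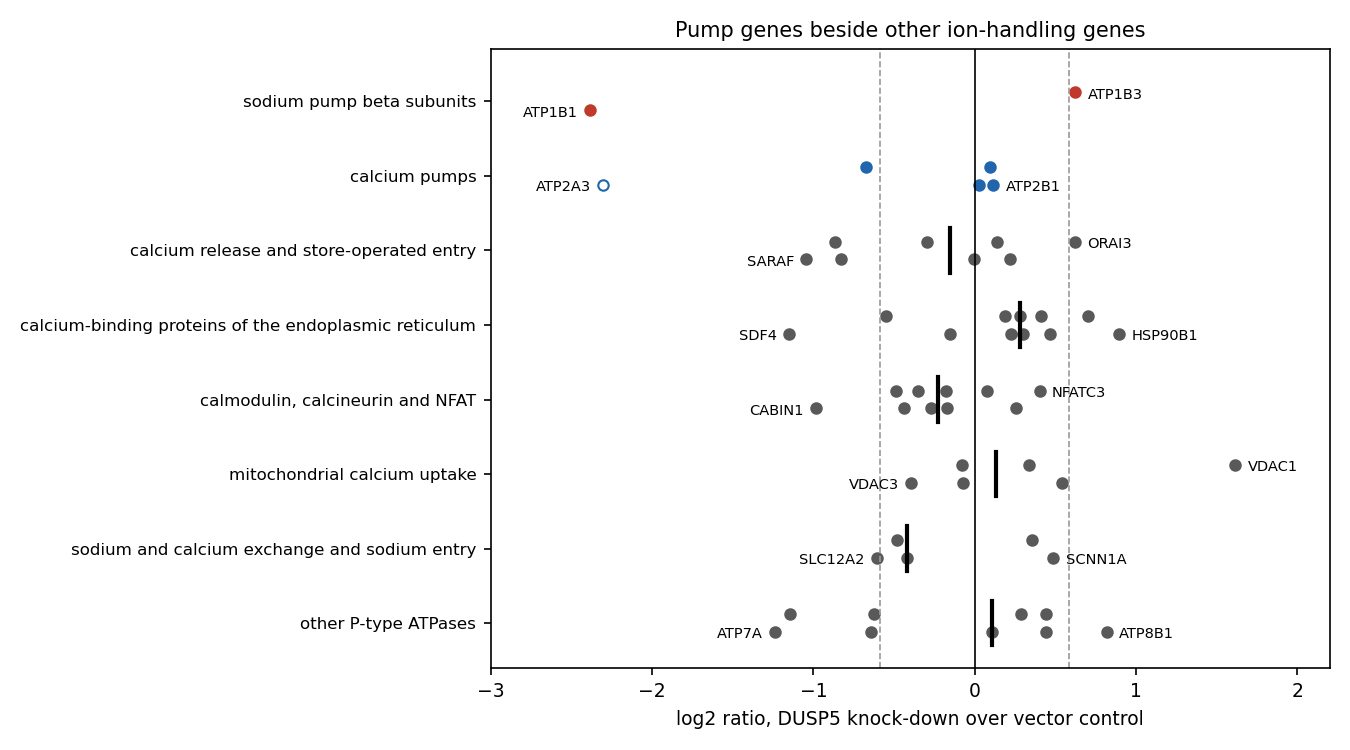
Log2 ratio (DUSP5 knock-down over vector control, 1 array each) of the 7 pump genes and of the measured genes of 6 lists, each at its brightest probe set. Each point is a gene, the open point is ATP2A3, whose mean signal is under 200, black bars are list medians, dashed lines mark 1.5-fold, and the vertical offset of points has no meaning. ATP1B1 and ATP2A3 lie to the left of all listed genes, and the calcium pumps ATP2A2, ATP2B1 and ATP2B4 lie close to 0.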

How the data were processed

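L-428 cells were compared on 2 arrays, DUSP5 knock-down and vector control, grouped by their labels. The authors ran MAS5, the MicroarraySuite algorithm, in Affymetrix Expression Console. The deposited signal intensities are on a linear scale, and the authors scaled both arrays to 1 target intensity. The median signal was 164 on the knock-down array and 161 on the control array. The table used here has no detection calls. Gene names came from the platform annotation of 2016. Of 22215 probe sets other than 68 controls, 19065 had 1 symbol, 1043 several and 2107 none.

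Log2 ratios were computed from the deposited signals without further normalization. The SD between probe sets came from pairs of probe sets of 1 gene, both in the same band of mean signal. A gene took its brightest probe set. Shares over all genes or probe sets were counted at 1.5-fold on the deposited values only. The number of arrays limits the precision. The 7 genes and all lists were chosen with earlier results of these data known. Every probe set of the 7 genes was named, and per list up to 3 measured genes at each end of the ratios. Alternatives were quantile normalization, median centring, a lowess fit (span 0.3), 32 added to each signal, other filters, a 2-fold rule, the mean of probe sets and probe set types _s_at and _x_at left out. The mean of every probe set, and ATP2A3 left out, were added after the data were seen. The SD between probe sets and the recovery of a known shift were tested on simulated data. The simulated noise had the same size at all signals, unlike the real arrays. The choice of probe set, the pump difference, the list counts and the sequence matches were not tested in this way. Python 3.11.15, numpy 2.4.6, pandas 2.3.3, statsmodels 0.14.6 and matplotlib 3.10.9 were used.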

Additional observations from a re-analysis of the deposited data

How the results depend on the processing

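The signs of the ATP1B1, ATP1B3, ATP2A3 and ATP2C1 ratios held in every alternative that gave a value, with log2 ratios of -2.51 to -1.86 for ATP1B1, 0.49 to 0.62 for ATP1B3, -2.45 to -1.16 for ATP2A3 and -1.65 to -0.57 for ATP2C1. ATP2A2 (-0.26 to 0.10), ATP2B1 (-0.03 to 0.13) and ATP2B4 (-0.10 to 0.59) crossed 0. The held sign of ATP2C1 does not cover 212255_s_at, with a ratio of 0.69, which no alternative took by itself. For ATP1B3, with its single probe set, the choice or averaging of probe sets could not change the sign. Of 89 comparisons with the reported values, 73 stayed within the SD between probe sets or 1.5 times the count, and 16 did not. Some of the 73 could not differ by construction. Leaving out the filter, or raising it to 500, keeps the brightest probe set of each gene that remains. Centring keeps the difference between the pumps. The tally is therefore no measure of robustness. With the mean of the measured probe sets, ATP1B1 had -1.86 and 1 gene was at least 1.5-fold lower in place of 2. With the mean of every probe set ATP1B1 had -1.86, ATP2A2 -0.26 and ATP2A3 -1.16. Without types _s_at and _x_at, ATP2B4 had 0.59 and ATP2C1 -1.65, 1 gene was lower and 2 were higher, and the sodium pump minus the calcium pumps came to 0.87. ATP1B1 and ATP2A3 have no value there, which by construction removes the lowest ratios. Without ATP2A3 that difference was -0.77. No gene was at least 1.5-fold higher after quantile normalization (0), median centring (0) or the lowess fit (0), because ATP1B3 then fell short of the line. By the 2-fold rule 1 was lower and 0 higher, and the share of all genes past 2-fold was not counted. At a mean signal of at least 500, ATP2A3, ATP2B1 and ATP2B4 have no value, nor has ATP2A3 with the mean of measured probe sets. No paired analysis was possible because there was 1 array for each condition. Low signals, with means under 200 at all 4 probe sets, limit ATP2A3, and the single probe set of ATP1B3 leaves its ratio without a second reading.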

Other observations

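The other P-type ATPases carry copper, phospholipids or other cargo. Of 9 measured genes, 4 were at least 1.5-fold lower and 1 was higher after knock-down, against 19.0% lower and 15.6% higher over all measured genes, and the median ratio (log2) was 0.10. After quantile normalization or with the lowess fit subtracted 2 of them were lower, and with ratios centred the median was -0.02. ATP7A, a copper pump, had a signal of 192 after knock-down and 452 in control cells (-1.24, SD 0.42), and -0.55 at its other probe set. The flippase genes ATP10D (-1.14, SD 0.42) and ATP8A1 (-0.64, SD 0.36, with 0.02 at its other probe set) were also low. ATP8B1 (0.82, SD 0.42), ATP10B (0.44, SD 0.42) and ATP8B2 (0.44, SD 0.42) were highest.

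Among 6 measured genes of mitochondrial calcium uptake, VDAC1, an ion channel of the outer mitochondrial membrane, had a signal of 4604 after knock-down and 1503 in control cells at its brightest probe set (1.61, SD 0.27) and ratios of 0.82 and 0.87 at the others. MCUR1 had 0.54 (SD 0.30) and LETM1 0.33 (SD 0.42), while VDAC3 (-0.40, SD 0.27), VDAC2 (-0.08, SD 0.27) and MICU2 (-0.07, SD 0.36) were lowest. The median was 0.13, and VDAC1 was the only gene at least 1.5-fold higher, joined by MCUR1 after quantile normalization (0.61) and with the lowess fit subtracted (0.59). Of 5 measured transporters that bring sodium into cells or exchange it, the cotransporter SLC12A2 (-0.61, SD 0.36) was at least 1.5-fold lower and none was higher, with a median of -0.42. After quantile normalization (-0.53) or with the lowess fit subtracted (-0.54) SLC12A2 fell short of that line and SLC38A2 passed it (-0.78 and -0.77), and with ratios centred both did (-0.73 and -0.61). The amino acid transporters SLC38A2 (-0.48, with -0.49 at its other probe set) and SLC1A5 (-0.42) and, at the upper end, SCNN1A (0.49) and SLC4A7 (0.36) did not reach 1.5-fold in the deposited values. Among all 6301 measured genes 15.6% were higher and 19.0% lower by the 1.5-fold rule, with a median of 0.01. The deposited counts, 1 of 6 higher and 1 of 5 lower, lie near these shares, so that nothing is read from them.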
